A study of Mus musculus with 8 samples.

Results

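Elastic fibres give soft tissues their recoil. The set described here holds 10 genes of these fibres, chosen by symbol: elastin (Eln), the fibrillins Fbn1 and Fbn2, the fibulins Fbln1, Fbln2 and Fbln5, the microfibril-associated proteins Mfap2, Mfap4 and Mfap5, and Emilin1. The platform annotation gave a probe set of its own to 9 of the 10, among the 22180 genes measured. Fbn1 had no probe set that this annotation ties to it alone and was not analysed here.

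The RNA came from primary hepatic stellate cells of BALB/c mice and was hybridised to 8 Affymetrix arrays, which fall into 4 groups of 2. Quiescent cells were taken from healthy livers at 0 hours, without seeding. The cultured group was such cells kept on plastic dishes for 10 days. The other two groups were cells taken without seeding from livers of mice given carbon tetrachloride (CCl4), a liver toxin that produces scarring, for 2 or 4 weeks. The labels do not give the age or sex of the mice, a dose of CCl4, a sort or gate, or whether both arrays of a group stand for different animals or cultures. The p-values therefore rest on a spread between arrays that may be only technical. A treatment protocol attached to all 8 samples names valproic acid at 2.5 mM, begun 2 hours after seeding. No title or treatment label names that agent, and 3 of the 4 groups were never seeded, so the sources used here do not settle whether the cultured cells received it.

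An elastic fibre has a core of crosslinked elastin laid down on a scaffold of microfibrils. Microfibrils are polymers of fibrillin that carry MFAP proteins, while fibulins and EMILIN1 sit at the border of core and scaffold and help to assemble it. Lysyl oxidases crosslink the elastin, and latent TGF-beta binding proteins (LTBPs) tie the growth factor TGF-beta to microfibrils. In the liver elastic fibres are found around portal tracts and vessels and build up in scars, and both stellate cells and portal fibroblasts can make their components. Elastin and fibulin-2 have also been used to mark portal fibroblasts.

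The study concerns YAP, a coactivator that acts through TEAD transcription factors, so the promoters of the members were read for the core of the TEAD motif, GGAATG, together with the AP-1 motif TGANTCA and the palindromic SMAD motif GTCTAGAC, on both strands. RefSeq promoter windows of 300 bases, 250 before and 50 after an annotated start (build GRCm38.p6), were read for 5 of the 9 measured members, with 8 windows among them. Windows on the chromosome of Fbn2 were left out for the members, but not from the count of all windows given below. The windows of a gene with several starts can overlap. The following 3 are shown because their genes took the different courses described below: Mfap2 rose after CCl4 and fell in culture, Fbln2 rose in both and most in culture, and Emilin1 fell in culture alone among the comparisons with quiescent cells. Of the Mfap2 windows, the one that holds GGAATG is shown, and the other held 0. Capitals mark the TEAD letters.
Mfap2, chr4:141010174-141010473, plus strand: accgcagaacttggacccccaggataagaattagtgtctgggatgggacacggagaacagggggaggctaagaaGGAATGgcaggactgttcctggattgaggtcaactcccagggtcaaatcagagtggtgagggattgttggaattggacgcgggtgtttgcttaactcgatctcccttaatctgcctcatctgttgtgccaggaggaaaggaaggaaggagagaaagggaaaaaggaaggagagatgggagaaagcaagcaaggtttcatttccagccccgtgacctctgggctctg
Fbln2, chr6:91212514-91212813, plus strand: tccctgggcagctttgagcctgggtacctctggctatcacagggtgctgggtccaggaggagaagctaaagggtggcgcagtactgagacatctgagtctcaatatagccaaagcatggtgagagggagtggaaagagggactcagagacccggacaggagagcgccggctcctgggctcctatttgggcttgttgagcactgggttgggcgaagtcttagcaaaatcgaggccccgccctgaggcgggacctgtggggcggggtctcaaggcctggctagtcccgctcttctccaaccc
Emilin1, chr5:30913536-30913835, plus strand: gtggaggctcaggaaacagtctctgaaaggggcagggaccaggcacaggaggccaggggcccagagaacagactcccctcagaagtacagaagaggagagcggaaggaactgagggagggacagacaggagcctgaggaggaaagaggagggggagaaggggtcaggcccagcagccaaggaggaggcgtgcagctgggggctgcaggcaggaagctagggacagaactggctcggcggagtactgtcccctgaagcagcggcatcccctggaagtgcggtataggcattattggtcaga
GGAATG stood in 1 of the 8 windows, the one of Mfap2 printed here, at bases 75 to 80 on the plus strand, with its first base 176 bases before the start. Among all 32851 windows of this length in the RefSeq table, 14.7% held it. TGANTCA, in 7.81% of all windows, and GTCTAGAC, in 0.213%, were found in 0 of the 8. These are matches of letters in a short window, and no binding was measured.

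Levels below are deposited log2 RMA values, 1 unit being a 2-fold step, and they can be compared between arrays for a gene but not between genes. Changes are log2 fold changes ± standard error (SE) from limma, 2 arrays against 2, and a gene was called at a Benjamini-Hochberg adjusted p under 0.05 over all 22180 genes. As a guide to background, 95% of the values of 1394 olfactory and vomeronasal receptor genes, which stellate cells are not known for, lay at or under 4.75 log2 units. The quiescent pair of arrays agreed least, with 565 genes over 2-fold apart against 56 to 158 in the other pairs.

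The elastic fibre genes did not move as a block. In 10-day culture 5 of the 9 fell against quiescent cells (Emilin1, Eln, Mfap4, Mfap2 and Fbln1) and 2 rose steeply (Fbln2 and Mfap5). After 2 weeks of CCl4 none fell and 6 rose, led by Mfap4 and Mfap2. Among the 6 was Fbn2, which lay under the background guide on all 8 arrays. After 4 weeks 4 were still called higher. Thus Eln, Fbln1, Mfap2 and Mfap4 were called higher after 2 weeks of CCl4 and lower in culture against the same 2 quiescent arrays, which all 3 of these comparisons share. When culture was compared with the mean of both CCl4 times, all 9 were called, 3 higher in culture (Fbln2, Mfap5 and Fbln5) and 6 lower.

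These counts stand against the calls over all genes. In culture against quiescent cells, 12.9% of all genes were called higher and 10.3% lower. After 2 weeks of CCl4 the shares were 2.34% higher and 2.43% lower, and after 4 weeks 4.04% and 4.67%. Between culture and the mean of both CCl4 times they were 12.6% and 8.72%. The median change of the 9 members was -0.71 in culture, 0.80 at 2 weeks and 0.52 at 4 weeks against quiescent cells, where the median over all genes lay between 0.00 and 0.01. With the groups fitted on their own arrays alone, the count of members higher at 2 weeks was 3 in place of 6.

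**Figure D1:**
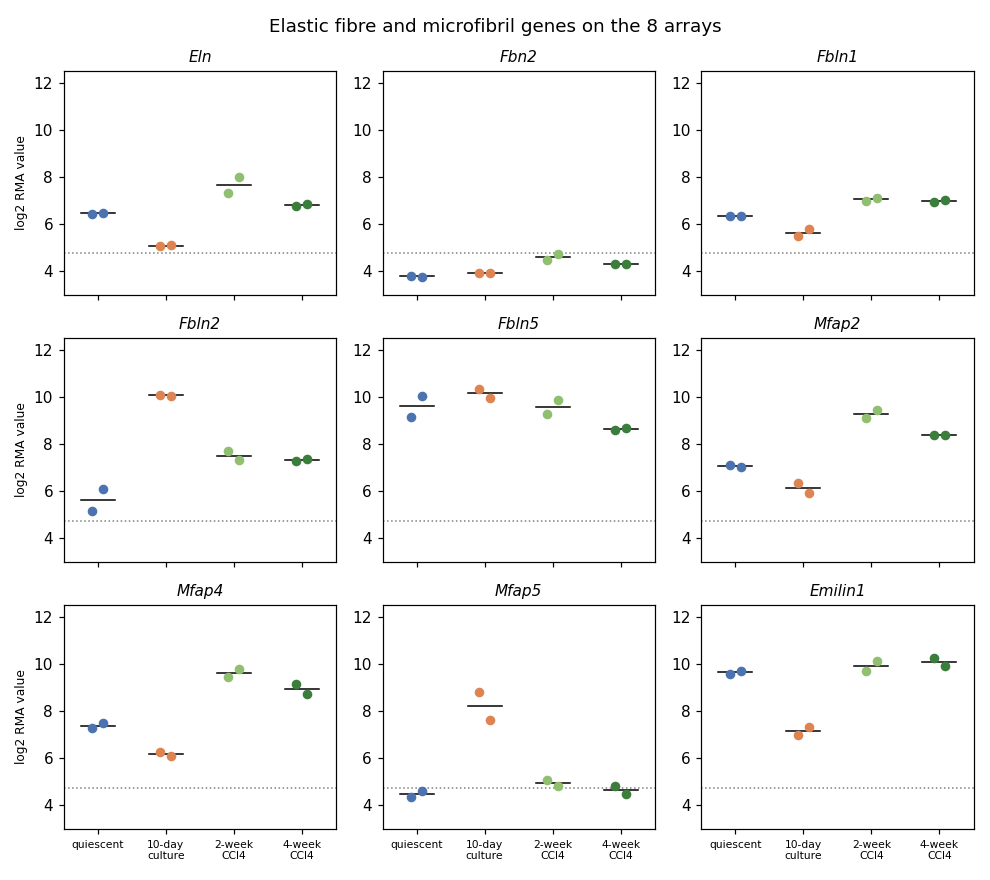
Deposited log2 RMA values of the 9 measured genes on each of the 8 arrays, 2 points a group, with a line at the mean of each group and a dotted line at the background guide of 4.75. Eln, Mfap2 and Mfap4 were lowest in culture and highest after 2 weeks of CCl4, while Fbln2 and Mfap5 were highest in culture. Heights cannot be compared between panels.

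Elastin, the protein of the fibre core, was lowest in culture and highest after 2 weeks of CCl4. Its log2 levels were 6.43 and 6.48 on the quiescent arrays, 5.05 and 5.10 in culture, 7.31 and 8.01 after 2 weeks of CCl4, and 6.75 and 6.85 after 4 weeks. No 2 groups overlapped, and the 2-week pair was the most spread. Eln in culture fell by 1.38 ± 0.21 (2.60-fold, limma adjusted p = 0.00158) and rose after 2 weeks of CCl4 by 1.21 ± 0.21 (2.31-fold, adjusted p = 0.0152). The 2-week call was lost when quiescent replicate 1 was left out (adjusted p = 0.0515) and in a fit of only the groups compared (0.0805). After 4 weeks the difference from quiescent cells was 0.35 ± 0.21 (adjusted p = 0.433), and that from 2 weeks was -0.86 ± 0.21 (adjusted p = 0.243), neither past the threshold. Against the mean of both CCl4 times, the log2 change in culture was -2.15 ± 0.18 (4.45-fold, adjusted p = 6.3e-05).

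Of the fibrillins, whose polymers form the microfibril, only Fbn2 was measured, and it lay at or under the background guide on all 8 arrays. The log2 levels were 3.80 and 3.78 in quiescent cells, 3.91 and 3.91 in culture, 4.47 and 4.72 after 2 weeks of CCl4, and 4.32 and 4.31 after 4 weeks. The CCl4 arrays all lay above the other 4, within this low range, and no fold is given. The log2 difference from quiescent cells was 0.80 ± 0.14 at 2 weeks (limma adjusted p = 0.0144) and 0.52 ± 0.14 at 4 weeks (adjusted p = 0.0523). The first was past the threshold and was lost without 2-week CCl4 replicate 2 (0.0758) or with only the groups compared (0.081). The second was not past it, although it was with each array centred on its median (0.0323) or quantile normalized again (0.0455). In culture the difference was 0.12 ± 0.14 (adjusted p = 0.636). Against the mean of both CCl4 times, culture was called lower, at -0.54 ± 0.12 (adjusted p = 0.0116), a call lost without either culture array (0.0739 without replicate 1 and 0.0769 without replicate 2).

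The 3 fibulins took 3 courses. Fibulin-1, a glycoprotein found in the elastin core and in basement membranes, moved little but in both directions. Its log2 levels were 6.34 and 6.35 in quiescent cells, 5.49 and 5.77 in culture, 6.98 and 7.10 after 2 weeks of CCl4, and 6.94 and 7.03 after 4 weeks. The CCl4 groups overlapped each other and lay above the quiescent pair, with culture below it. Fbln1 in culture fell by 0.71 ± 0.15 (limma adjusted p = 0.00709) and rose by 0.70 ± 0.15 at 2 weeks (adjusted p = 0.0315) and 0.64 ± 0.15 at 4 weeks (adjusted p = 0.029). The call in culture was lost without culture replicate 1 (0.0571). The CCl4 calls were near the threshold and were lost in 7 of 15 alternatives at 2 weeks (adjusted p 0.0646 to 0.131) and in 5 of 15 at 4 weeks (0.0586 to 0.169).

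Fibulin-2, which bridges elastin, fibrillin and basement membrane proteins, had the largest change of the set. The log2 levels of Fbln2 were 5.17 and 6.08 in quiescent cells, 10.10 and 10.05 in culture, 7.69 and 7.33 after 2 weeks of CCl4, and 7.28 and 7.36 after 4 weeks. Culture stood far above every other array, the CCl4 groups overlapped between, and the quiescent arrays were lowest and differed by 0.91. Fbln2 rose in culture by 4.45 ± 0.27 (21.8-fold, limma adjusted p = 8.11e-06). The rise was 1.89 ± 0.27 after 2 weeks of CCl4 (3.69-fold, adjusted p = 0.00627) and 1.70 ± 0.27 after 4 weeks (3.25-fold, adjusted p = 0.00585). The CCl4 calls were lost when 2-week CCl4 replicate 1 (0.0723) or 4-week CCl4 replicate 2 (0.0545) was left out. Tested directly, culture was higher than the mean of both CCl4 times by 2.66 ± 0.23 (6.31-fold, adjusted p = 7.09e-05).

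Fibulin-5, which brings elastin and lysyl oxidase-like 1 onto microfibrils, was not called in any comparison with quiescent cells. The log2 levels of Fbln5 were 9.15 and 10.04 in quiescent cells, 10.32 and 9.97 in culture, 9.27 and 9.87 after 2 weeks of CCl4, and 8.58 and 8.66 after 4 weeks. The wide quiescent pair overlapped both culture and 2-week CCl4, which lay apart from each other, and the 4-week pair lay below all the other arrays. The difference from quiescent cells was 0.55 ± 0.30 in culture (limma adjusted p = 0.249), -0.02 ± 0.30 at 2 weeks (0.984) and -0.97 ± 0.30 at 4 weeks (0.088). The culture difference passed the threshold without quiescent replicate 2 (adjusted p = 0.0266) and the 4-week one without quiescent replicate 1 (0.0161), while the 2-week one passed it in 0 of 15 alternatives. Culture was called above the mean of both CCl4 times, by 1.05 ± 0.26 (2.07-fold, adjusted p = 0.0189), and this call was lost in 5 of the 8 fits that left out an array (0.0504 to 0.154).

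Mfap2 and Mfap4 rose together after CCl4 and fell together in culture. MFAP2, also called MAGP-1, binds fibrillin and TGF-beta family growth factors, and MFAP4 binds fibrillin and elastin. The log2 levels of Mfap2 were 7.12 and 7.02 in quiescent cells, 6.35 and 5.92 in culture, 9.12 and 9.45 after 2 weeks of CCl4, and 8.38 and 8.38 after 4 weeks. No 2 groups overlapped. Mfap2 rose by 2.21 ± 0.18 at 2 weeks (4.63-fold, limma adjusted p = 0.000424) and 1.30 ± 0.18 at 4 weeks (2.47-fold, adjusted p = 0.00334), and fell by 0.94 ± 0.18 in culture (1.91-fold, adjusted p = 0.0054).

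For Mfap4 the log2 levels were 7.28 and 7.49 in quiescent cells, 6.28 and 6.08 in culture, 9.47 and 9.77 after 2 weeks of CCl4, and 9.13 and 8.72 after 4 weeks. Its groups did not overlap and stood in the same order as those of Mfap2. Mfap4 rose by 2.24 ± 0.19 at 2 weeks (4.71-fold, adjusted p = 0.000493) and 1.54 ± 0.19 at 4 weeks (2.90-fold, adjusted p = 0.00188), and fell by 1.20 ± 0.19 in culture (2.31-fold, adjusted p = 0.00175). Against the mean of both CCl4 times, the log2 change in culture was -3.09 ± 0.16 for Mfap4 (8.53-fold, adjusted p = 4.5e-06) and -2.70 ± 0.16 for Mfap2 (6.48-fold, adjusted p = 6.97e-06). None of these 8 calls was lost in any of the 15 alternative fits.

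Mfap5 rose in culture, where Mfap2 and Mfap4 fell, and was not called after CCl4. MFAP5, or MAGP-2, is a close relative of MFAP2 that also binds fibrillin. Its log2 levels were 4.38 and 4.62 in quiescent cells, both under the background guide, 8.81 and 7.63 in culture, 5.08 and 4.82 after 2 weeks of CCl4, and 4.82 and 4.50 after 4 weeks. Only the cultured arrays stood well above the guide, and they differed from each other by 1.19, the widest gap of any pair in the set. Mfap5 rose in culture by 3.72 ± 0.33 (limma adjusted p = 7.14e-05), a difference from levels under the guide. The mean of the cultured arrays stood 11.0-fold above the guide, which is a level taken from other genes and so only a rough mark. Leaving out a cultured array moved these values. The log2 difference was 3.13 without replicate 1 and 4.31 without replicate 2, and the height above the guide 7.32-fold and 16.6-fold. The difference from quiescent cells was 0.45 ± 0.33 at 2 weeks (adjusted p = 0.581) and 0.16 ± 0.33 at 4 weeks (0.871), neither past the threshold. Culture was higher than the mean of both CCl4 times by 3.41 ± 0.29 on the log2 scale (adjusted p = 5.7e-05), or by 2.82 and 4.00 without culture replicate 1 or 2. No fold is given, since the CCl4 arrays lay near the guide, with 4-week replicate 2 under it.

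EMILIN1, a glycoprotein at the surface of the elastin core that restrains the maturation of TGF-beta, had its transcript reduced in culture but still above the background guide. The log2 levels of Emilin1 were 9.60 and 9.69 in quiescent cells, 7.01 and 7.31 in culture, 9.69 and 10.12 after 2 weeks of CCl4, and 10.27 and 9.92 after 4 weeks. The cultured pair lay far below the 6 other arrays, and the CCl4 groups overlapped. Emilin1 in culture fell by 2.48 ± 0.20 (5.59-fold, limma adjusted p = 3.78e-05). The difference after CCl4 was 0.27 ± 0.20 at 2 weeks (adjusted p = 0.588) and 0.45 ± 0.20 at 4 weeks (0.242), neither past the threshold. Against the mean of both CCl4 times, the log2 change in culture was -2.84 ± 0.17 (7.15-fold, adjusted p = 7.93e-06).

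**Figure D2:**
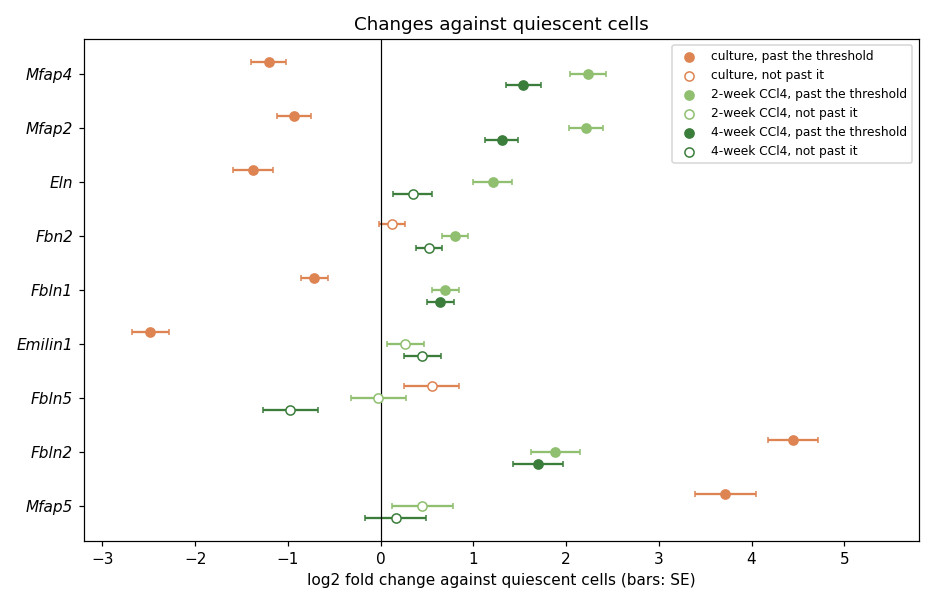
Log2 fold changes of the 9 genes against quiescent cells from limma, with bars for the SE, in culture and after 2 or 4 weeks of CCl4. Filled points passed an adjusted p of 0.05 and open points did not. Mfap4, Mfap2, Eln and Fbln1 have culture on the left of 0 and 2-week CCl4 on the right, and Fbln2 and Mfap5 have culture far on the right at 4.45 and 3.72.

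Between 4 and 2 weeks of CCl4, none of the 9 members was called by limma, against 0.0271% of all genes called higher and 0.0586% lower. At an unadjusted p under 0.05, 4 members were lower at 4 weeks (Eln, Fbln5, Mfap2 and Mfap4) and 0 higher, where 8.16% of all genes passed in either direction. Fitted with a trend and robust option, limma called 0 as well. In the main limma fit the difference was -0.91 ± 0.18 for Mfap2 (adjusted p = 0.143), -0.70 ± 0.19 for Mfap4 (0.298) and -0.95 ± 0.30 for Fbln5 (0.397).

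The likeness of patterns over the 8 arrays was measured as the root mean square difference of log2 values after each gene was centred on its own mean, over all 22180 genes. Mfap2 and Mfap4 were each the nearest gene of all to the other, at 0.228 log2 units. Wt1, a transcription factor gene of mesothelial and stellate cells, came next for Mfap4 (0.233), and Igf1, a growth factor gene, next for Mfap2 (0.285). Nearest to Fbln2 was Tgfb2, a ligand of the TGF-beta receptors (0.253), followed by Anxa3 and Cd200. Nearest to Eln was Ptprc, the leukocyte antigen CD45 (0.274), before Etl4 and Gas6. Nearest to Mfap5 was Birc5, which encodes the mitotic protein survivin (0.318), then Dkk2 and Ccna2, and nearest to Emilin1 was Rin2 (0.158). Cmtm3 was nearest to Fbln1 (0.0925), Qpct to Fbln5 (0.194) and C1qtnf3 to Fbn2 (0.122). A small distance is easier to reach for genes that vary little.

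Among the enzymes that crosslink elastin and those that process them, 4 of 8 measured genes rose and 1 fell in culture, and 2 rose after CCl4 at each time. The log2 levels of Lox, the lysyl oxidase, were 5.59 and 5.33 in quiescent cells, 11.23 and 11.18 in culture, 10.17 and 9.92 after 2 weeks of CCl4, and 9.55 and 9.76 after 4 weeks. Lox thus rose in every activated group, by 5.75 ± 0.16 in culture (limma adjusted p = 1.32e-07), 4.58 ± 0.16 at 2 weeks (1.37e-05) and 4.20 ± 0.16 at 4 weeks (1.48e-05). Loxl1, the relative that works with fibulin-5, stood at 7.94 and 8.73 in quiescent cells, 7.66 and 7.54 in culture, 9.88 and 10.04 after 2 weeks and 9.85 and 9.55 after 4 weeks. It rose by 1.63 ± 0.24 at 2 weeks (adjusted p = 0.00769) and 1.36 ± 0.24 at 4 weeks (0.0102), and its log2 change in culture against the CCl4 mean was -2.23 ± 0.21 (0.00011). Without 2-week CCl4 replicate 1 or 2 the first of these was not called (0.0611 and 0.0578), nor was the second without 4-week CCl4 replicate 1 (0.0985). Tll1, a tolloid protease of the family that activates lysyl oxidase, stood at 3.57 and 3.67 in quiescent cells, under the background guide, at 6.91 and 7.74 in culture, and under the guide on all 4 CCl4 arrays. Its log2 difference in culture, 3.71 ± 0.24, was past the threshold (1.3e-05), and no fold is given. The gene that fell in culture was Pcolce, an enhancer of procollagen processing, which fell by 0.94 ± 0.23 (0.0173), a call lost without quiescent replicate 2 (0.078) or culture replicate 2 (0.121) and with only the groups compared (0.0616).

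Of the 9 latent TGF-beta binding genes and ligands, 4 rose and 2 fell in culture, 3 rose and 2 fell at 2 weeks, and 4 rose and 1 fell at 4 weeks. Ltbp2, which binds fibrillin but not latent TGF-beta, had log2 levels of 5.05 and 5.22 in quiescent cells, 8.96 and 9.03 in culture, 8.94 and 9.37 after 2 weeks, and 8.91 and 9.11 after 4 weeks. Its rise was of like size in all 3 comparisons, 3.86 ± 0.17, 4.03 ± 0.17 and 3.88 ± 0.17, with limma adjusted p of 1.81e-06, 1.68e-05 and 1.91e-05. Ltbp4, which is needed for elastic fibre assembly with fibulin-5, stood at 9.49 and 10.01 in quiescent cells, 5.47 and 5.43 in culture, 8.45 and 8.95 after 2 weeks, and 8.85 and 9.03 after 4 weeks. It in culture fell by 4.30 ± 0.22 (adjusted p = 3.43e-06). Its fall at 2 weeks, by 1.05 ± 0.22 (0.0304), was lost in 7 of the 15 alternatives, at up to 0.203 without 2-week CCl4 replicate 1. Tgfb3, a TGF-beta ligand, rose by 4.47 ± 0.26 in culture (6.92e-06), 2.79 ± 0.26 at 2 weeks (0.000728) and 3.40 ± 0.26 at 4 weeks (0.000206). Tgfbi, a matrix protein induced by TGF-beta, went the other way: it stood at 12.38 and 12.55 in quiescent cells and 5.66 and 5.14 in culture, and fell by 7.07 ± 0.19 (1.13e-07). After CCl4 it fell by 0.95 ± 0.19 at 2 weeks (0.0238) and 0.90 ± 0.19 at 4 weeks (0.0194), calls lost in 5 and 3 of 15 alternatives.

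**Figure D3:**
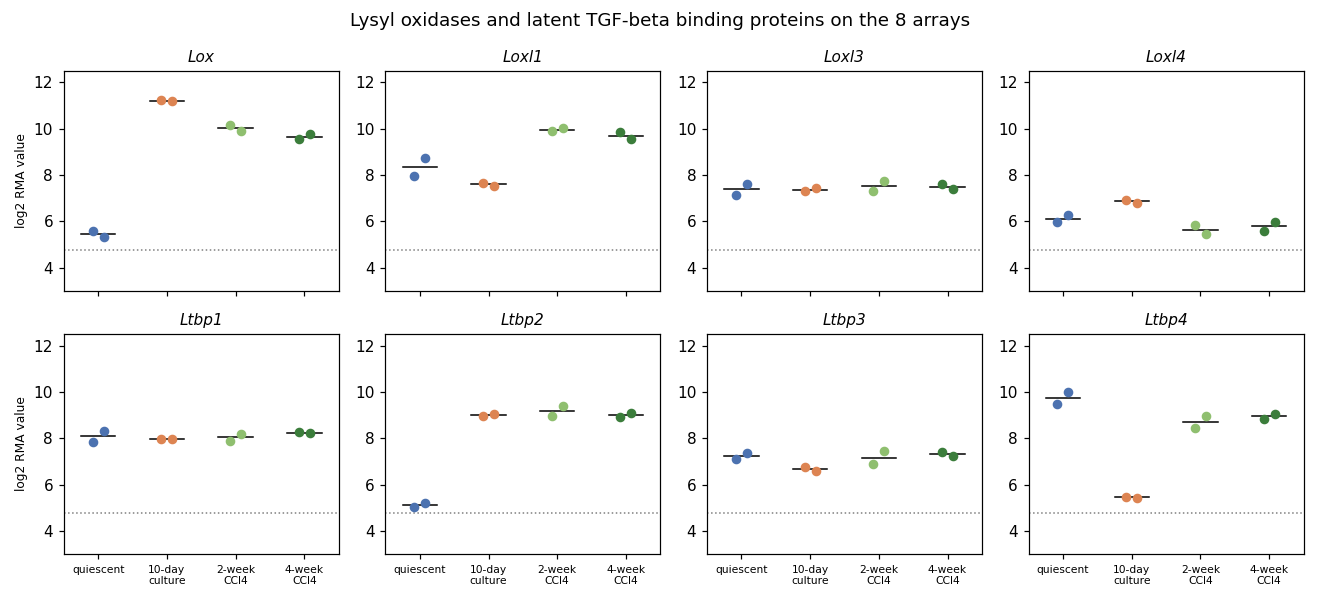
Deposited log2 RMA values of 4 lysyl oxidases (Lox, Loxl1, Loxl3 and Loxl4) and 4 latent TGF-beta binding proteins (Ltbp1 to Ltbp4) on each array, with a line at each group's mean and a dotted line at the background guide of 4.75. Lox and Ltbp2 were low only on the 2 quiescent arrays, Loxl1 was highest after CCl4, and Ltbp4 was low only in culture.

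Of 17 further microfibril partners, 3 rose and 6 fell in culture, 2 rose and 1 fell at 2 weeks, and 3 rose and 2 fell at 4 weeks. Vcan, the proteoglycan versican that binds fibrillin, rose by 1.46 ± 0.20 in culture (limma adjusted p = 0.000888), 2.94 ± 0.20 at 2 weeks (0.000167) and 3.05 ± 0.20 at 4 weeks (0.000108). Efemp1, or fibulin-3, fell in all 3, by 3.13 ± 0.26 in culture (4.84e-05), 1.42 ± 0.26 at 2 weeks (0.018) and 1.40 ± 0.26 at 4 weeks (0.0124). The CCl4 calls of Efemp1 were lost without either array of the same CCl4 time (0.128 and 0.088 at 2 weeks, 0.0784 and 0.0947 at 4 weeks), and that at 2 weeks also without quiescent replicate 2 (0.0509). In culture Tnxb, the matrix glycoprotein tenascin-X, fell by 3.21 ± 0.24 (2.7e-05). Against that majority in culture, Hspg2, the proteoglycan perlecan, rose by 0.73 ± 0.14 (0.0047). At 4 weeks Hspg2 rose by 0.73 ± 0.14 too (0.0136), a call lost in 3 of 15 alternatives. In culture Npnt, a basement membrane integrin ligand, differed from quiescent cells by 1.65 ± 0.23 on the log2 scale (0.000932). It went from 4.10 and 4.43 in quiescent cells, under the guide, to 6.23 and 5.59 in culture.

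Among 10 ADAMTS and ADAMTS-like genes of the microfibril, 2 rose and 5 fell in culture, 1 rose and 2 fell at 2 weeks, and 1 rose and 3 fell at 4 weeks. Adamtsl2, which binds fibrillin and LTBP1, in culture fell by 4.90 ± 0.17 (limma adjusted p = 4.41e-07). It also fell by 0.88 ± 0.17 at 2 weeks (0.0259) and 0.70 ± 0.17 at 4 weeks (0.0418), calls lost in 6 and 10 of 15 alternatives. Adamtsl4, which promotes fibrillin deposition, in culture fell by 1.71 ± 0.24 (0.00103). Its fall at 4 weeks, by 0.98 ± 0.24 (0.0403), was lost in 6 of 15. Papln fell by 2.58 ± 0.27 in culture (0.000163), to a mean of 4.90, near the background guide. It also fell by 1.92 ± 0.27 at 2 weeks (0.0057) and 1.58 ± 0.27 at 4 weeks (0.00789), each call lost in 1 of 15. The gene that rose after CCl4 was Adamtsl1, by 1.54 ± 0.26 at 2 weeks (0.0119) and 1.35 ± 0.26 at 4 weeks (0.0134). Each of these calls was lost in 1 of 15 too.

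Among 20 elastases, other elastin-cleaving enzymes and their inhibitors, 7 rose and 5 fell in culture, 8 rose and 1 fell at 2 weeks, and 8 rose and 2 fell at 4 weeks. Mmp12, the macrophage elastase, had log2 levels of 4.87 and 4.79 in quiescent cells, 7.37 and 7.38 in culture, 8.11 and 8.23 after 2 weeks, and 6.98 and 6.84 after 4 weeks. It rose by 2.54 ± 0.13 in culture (limma adjusted p = 4.18e-06), 3.34 ± 0.13 at 2 weeks (1.38e-05) and 2.08 ± 0.13 at 4 weeks (9.44e-05). It also fell between 2 and 4 weeks, by 1.26 ± 0.13 (adjusted p = 0.0321), as did Ctss, the elastin-cleaving cathepsin S, by 1.22 ± 0.14 (0.0321), the only 2 genes of these 6 lists called between the CCl4 times. The call of Mmp12 was lost in 7 of 15 alternatives (up to 0.335) and that of Ctss in 6 (up to 0.339), each time among them without either array of either CCl4 time. Markers of macrophages, which express both genes, moved with this difference: 4 of 10 fell between 2 and 4 weeks and 0 rose, and their median log2 level was 7.65 and 7.76 on the 2-week arrays and 5.84 and 5.45 on the 4-week ones. Against quiescent cells the markers did not move with Mmp12, which rose in culture and at both CCl4 times. There 9 of 10 macrophage markers fell in culture and 9 at 4 weeks, and 1 rose and 1 fell at 2 weeks. Ctss differed from Mmp12 here. Its log2 change between culture and quiescent cells was -0.48 ± 0.14 (limma adjusted p = 0.0352), a call lost in 8 of 15 alternatives. The mean log2 level of Ctss was 9.10 on the quiescent arrays, 9.91 on the 2-week arrays and 8.69 on the 4-week ones. The part of macrophages in these differences was not tested.

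Mmp2, a gelatinase that also cleaves elastin, split as Mfap2 did. In culture it fell by 2.46 ± 0.24 (limma adjusted p = 0.000118), from 9.16 and 9.43 to 7.12 and 6.55, and stood at 11.07 and 11.51 after 2 weeks of CCl4 and 11.55 and 11.17 after 4 weeks. Against the mean of both CCl4 times, its log2 change in culture was -4.49 ± 0.21 (1.97e-06). Mmp10, a stromelysin, rose in culture by 5.82 ± 0.31 (4.18e-06), and Ctsk, the elastin-cleaving cathepsin K, rose by 2.44 ± 0.16 at 2 weeks (0.000154) and 2.53 ± 0.16 at 4 weeks (9.44e-05). Serpina1a, an elastase inhibitor made by hepatocytes, fell by 1.83 ± 0.26 in culture (0.00094). Its fall at 4 weeks, by 1.13 ± 0.26 (0.0293), was lost in 6 of 15 alternatives. Timp1, an inhibitor of these proteases, rose by 3.67 ± 0.26 in culture (2.07e-05), 3.53 ± 0.26 at 2 weeks (0.000259) and 3.75 ± 0.26 at 4 weeks (0.000142).

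Among 15 measured integrins and other receptors, 4 rose and 5 fell in culture, 1 rose and 3 fell at 2 weeks, and 3 rose and 2 fell at 4 weeks. Itga5, the integrin chain that binds fibronectin and fibrillin, rose in culture by 3.14 ± 0.25 (limma adjusted p = 4.15e-05) and at 4 weeks by 2.36 ± 0.25 (0.00094). Itgb8, a chain of an integrin that activates latent TGF-beta, in culture fell by 3.08 ± 0.26 (5.89e-05). In culture 1 of its 2 arrays was under the guide. Itga4, the chain of a fibronectin and VCAM-1 receptor, rose in culture by 2.90 ± 0.17 (7.34e-06). Itgb3, which pairs with the alpha v chain, stood at 10.17 and 8.79 in quiescent cells, 6.96 and 6.34 after 2 weeks of CCl4 and 7.17 and 7.47 after 4 weeks. It fell by 2.83 ± 0.40 at 2 weeks (0.00602) and 2.16 ± 0.40 at 4 weeks (0.0116). Without quiescent replicate 1 the changes were -2.14 and -1.47, and without quiescent replicate 2 they were -3.52 and -2.86. The calls were lost without 2-week CCl4 replicate 2 (0.0514) and without either 4-week array (0.103 and 0.063).

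The labelled cell type was checked by its markers, and those of other cells are given here because they moved with the comparisons. All 12 quiescent stellate cell markers lay above the background guide on the quiescent and CCl4 arrays, with medians from 10.23 to 10.49 log2 units, and 9 to 11 of them in culture, with medians of 7.31 and 6.63. By limma 10 of the 12 fell in culture and 0 rose. After CCl4 the median over the list hid falls of single markers: 5 fell and 1 rose at 2 weeks, and 7 fell and 1 rose at 4 weeks. Vipr1, a neuropeptide receptor gene, fell by 2.13 at 2 weeks (adjusted p = 0.000598) and 2.41 at 4 weeks (0.000248), while Pdgfrb, the receptor of a stellate cell mitogen, rose by 0.91 (0.0409) and 1.28 (0.00623). The summed log2 level of the list was 14.69 to 14.75 in quiescent cells, 12.26 to 12.35 in culture, 14.09 to 14.18 at 2 weeks and 14.26 to 14.27 at 4 weeks. Of 10 measured portal fibroblast markers, 0 rose and 6 fell in culture, 3 rose and 1 fell at 2 weeks, and 3 rose and 2 fell at 4 weeks. Their summed level, on the log2 scale, was 11.54 to 11.58 in quiescent cells and 8.71 to 9.28 in culture. After CCl4 it was 12.32 to 12.58 at 2 weeks and 12.28 to 12.41 at 4 weeks, which overlap. The order of group means was that of Mfap2 and Mfap4. The summed mesothelial markers given below stood in it too, but Wt1 was the only one of them called after CCl4. The portal fibroblast markers that rose after CCl4 were Cd34, Dpt and Col15a1. Those that fell were Dpp4, a surface peptidase, by 2.41 at 2 weeks (limma adjusted p = 0.0107) and 3.25 at 4 weeks (0.00166), and Clec3b, or tetranectin, by 0.87 at 4 weeks (0.0124), where both its arrays were under the guide. Dpt, which encodes the matrix protein dermatopontin, stood at 10.36 and 10.82 in quiescent cells, 11.77 and 11.96 after 2 weeks, 11.84 and 11.73 after 4 weeks, and under the guide in culture at 3.95 and 3.86. Col15a1 was under the guide in quiescent cells and culture and rose by 2.88 at 2 weeks (limma adjusted p = 0.000154) and 3.47 at 4 weeks (4.05e-05). Thy1, a marker used for portal fibroblasts and myofibroblasts, was not called in either CCl4 comparison (adjusted p = 0.441 and 0.319). In bulk samples like these, fewer cells of a type and less RNA per cell cannot be told apart, and the part of portal fibroblasts in the changes of the elastic fibre genes was not tested.

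Of 8 mesothelial markers, 3 to 4 lay above the guide on every array. Wt1 was the only one called after CCl4, with a rise of 1.78 at 2 weeks (limma adjusted p = 0.00517) and 1.54 at 4 weeks (0.00545). The summed log2 level of the mesothelial list was 8.19 to 8.61 in quiescent cells and 7.95 to 8.15 in culture. It was 9.38 to 9.63 after 2 weeks and 9.24 to 9.36 after 4 weeks. Much of that sum was Wt1, which stood at 8.92 and 9.28 after 2 weeks and 8.95 and 8.78 after 4 weeks. The median of the list ran only from 4.56 to 4.77 over all the arrays. Of 10 vascular smooth muscle markers, 7 rose in culture, 6 at 2 weeks and 7 at 4 weeks, and their summed log2 level went from 9.85 to 10.78 in quiescent cells to 14.22 to 14.29 in culture. Many of these are also genes of activated stellate cells. Hepatocyte markers were highest in quiescent cells, with a summed log2 level of 13.11 to 13.80 against 8.49 to 8.72 in culture, 12.09 to 12.73 after 2 weeks and 10.84 to 11.15 after 4 weeks, and 0 of 10 rose in any of these comparisons while 8, 4 and 8 fell. Of 10 sinusoidal endothelial markers, 10 fell in culture, 6 at 2 weeks and 8 at 4 weeks, from a summed log2 level of 12.66 to 13.62 in quiescent cells to 8.56 to 9.02, 11.23 to 11.58 and 10.49 to 10.93. Macrophage markers fell in 9 of 10 cases in culture and at 4 weeks, and at 2 weeks 1 rose and 1 fell, with summed log2 levels of 11.36 to 11.73 in quiescent cells, 10.09 to 10.34 in culture, 11.33 to 11.57 after 2 weeks and 9.79 to 9.80 after 4 weeks. The part of these cells in the differences from quiescent cells was not tested.

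**Figure D4:**
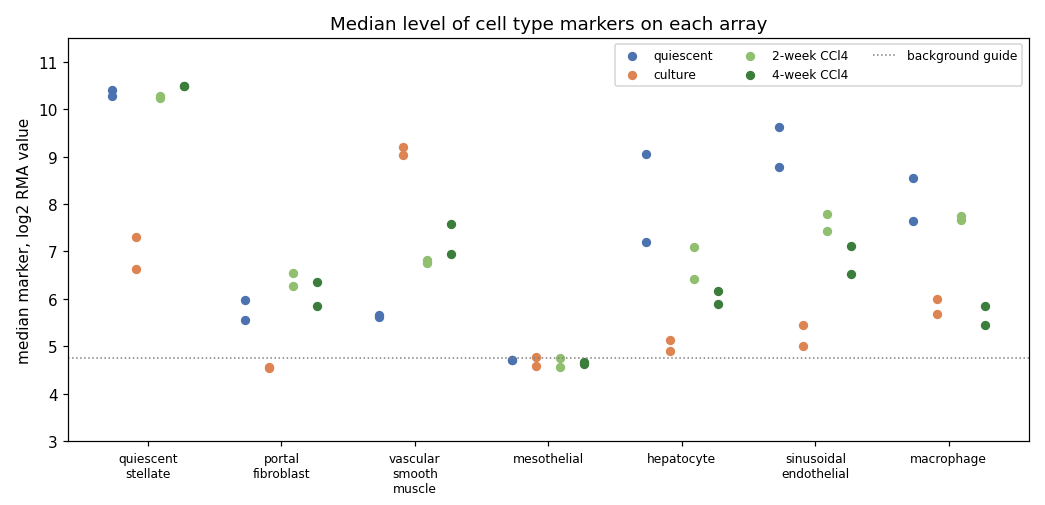
Median log2 RMA value of each cell type's marker list on each of the 8 arrays, 2 points a group, with a dotted line at the background guide of 4.75. The median of the quiescent stellate cell list lies between 10.23 and 10.49 outside culture, although 5 of its 12 markers fell at 2 weeks and 7 at 4 weeks, portal fibroblast markers are lowest in culture, and hepatocyte and endothelial markers are highest on the quiescent arrays.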

How the data were processed

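Total RNA of 8 samples in 4 groups of 2 was preamplified and hybridised to Affymetrix arrays. The authors deposited log2 values, and the submitters' processing notes name RMA and Affymetrix Expression Console, without versions. RMA makes the arrays share a distribution, so a shift common to most genes would not show. Groups were taken from the sample titles.

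Of 41345 probe sets, 23521 had 1 gene symbol in the platform annotation, 1814 had several and 16010 were not named here. A check of the symbols by gene ID against RefSeq (GRCm38.p6) left 0 changed, with 193 IDs absent from that table. The probe set with the highest mean stood for a gene, and each measured member had only 1. No gene coordinates are printed, since the build of the array design was not given.

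Differences were tested two-sided with limma 3.58.1 (R 4.3.3), lmFit and eBayes, in a single fit of all 8 arrays in 4 groups, with 4 residual and 4.75 prior degrees of freedom and Benjamini-Hochberg adjustment over 22180 genes. The fit was tested on simulated data. No detection calls were used, and the background guide and the promoter motifs were chosen with the data in view. Precision is limited by the number of arrays.

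The members, the 6 lists of related genes and the marker lists were chosen with earlier results of these data known. Named genes were all members, up to 4 called genes of a list and comparison with the smallest p, and called genes that went against their list. The text prints only some of the list genes so picked, taken with their values in view. Efemp2, Loxl2 and Glb1 had no probe set of their own and were not analysed here. The 15 alternatives were a replicate block, trend and robust moderation, a filter on low means, median centring, quantile normalization, the mean of probe sets, only the groups compared, and each array left out.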

Additional observations from a re-analysis of the deposited data

How the results depend on the processing

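Of 45 changes tested (9 genes in 5 comparisons), 26 were called, and 17 of these were called in every alternative that tested them, a filter on means under 5 log2 units having left out Fbn2. The other 9 lost the call in at least 1 alternative, 3 of the 19 not called gained it, and 0 called changes turned sign. The count of members higher at 2 weeks was 6, 3 with only the groups compared, and 4 to 6 with an array left out. At 4 weeks 4 were higher, 2 to 4 with an array left out (2 without 4-week CCl4 replicate 2), and 0 were lower, 0 to 1 with an array left out (1, Fbln5, without quiescent replicate 1). In culture 2 to 3 were higher and 4 to 5 lower with an array left out, and against the CCl4 mean 2 to 3 higher and 5 to 6 lower. Leaving out an array leaves a lone one in its group, which is assumed to vary like the other groups.

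Over all genes, calls at 2 weeks were 520 higher and 538 lower, 227 and 145 with only the groups compared, and 190 to 633 and 70 to 797 with an array left out. At 4 weeks they were 896 and 1036, 552 and 653 with only the groups compared, and 317 to 912 and 335 to 1201. In culture the 2869 and 2276 ran from 1968 to 2772 and from 1537 to 2274, and against the CCl4 mean the 2789 and 1933 from 1683 to 3007 and from 1163 to 2218. Between 4 and 2 weeks the 6 and 13 became 2 and 7 with the replicate block, 14 and 68 with only the groups compared, and 0 to 15 and 0 to 70. Differences between replicates correlated across groups at -0.042 to 0.074. No strong effect shared by replicate number was seen, but such values cannot exclude a pairing. With the replicate number as a block the member counts were 2 higher and 5 lower in culture, and 0 calls between the CCl4 times.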
